A study of Homo sapiens with 24 samples.

Results

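The selenoprotein genes examined here are 10 of the 54583 genes in the deposited count table, chosen by name because their mRNAs read a UGA codon as selenocysteine. They were the glutathione peroxidase genes GPX1 and GPX4, the thioredoxin reductase genes TXNRD1 and TXNRD2, and SELENOF, SELENOH, SELENOK, SELENOS, SELENOT and SELENOW. PANC-1, an established cell line of human pancreatic ductal adenocarcinoma, was plated and treated for 6 h with CID661578 at 40 µM, with cercosporamide at 5 µM, a known inhibitor of the kinase MNK2, or with the vehicle DMSO. The study names MNK2 as the target of CID661578 and asked which mRNAs change in translation with each compound. Each treatment had 4 biological replicates, and total cytosolic mRNA and mRNA from pooled sucrose gradient fractions with more than 3 ribosomes were sequenced from every plate, which gave 24 libraries. The sample descriptions name RPMI 1640 as the medium and the methods of the study name DMEM, and the selenium content of the medium is not given in the sources used here. All values come from 1 cancer cell line and 1 time point.

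Selenocysteine is the selenium analogue of cysteine and sits in the active site of most selenoproteins. UGA normally ends translation, and the ribosome reads it as selenocysteine only when a hairpin in the 3′ UTR, the SECIS element, brings SECISBP2, the elongation factor EEFSEC and the selenocysteine tRNA to the codon. Most of the encoded enzymes reduce peroxides or keep thioredoxin and other thiols reduced, and the mRNAs of several of them are known to depend on the selenium supply.

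The bases around the UGA codon of each mRNA are shown because this codon defines the set. They are read 5′ to 3′ on the coding strand of the MANE Select transcript in GENCODE v44 on GRCh38, with TGA in capitals as the DNA letters of the UGA codon, 12 bases of coding sequence before it and up to 12 after it.
GPX1: gtggcgtccctcTGAggcaccacggtc
GPX4: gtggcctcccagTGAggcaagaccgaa
TXNRD1: caggctggctgcTGAggt
TXNRD2: gtgacaggctgcTGAggg
SELENOF: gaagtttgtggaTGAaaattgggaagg
SELENOK: atggctggtggaTGAggaagg
SELENOS: tcatctggcggaTGAggc
SELENOT: atttgtgtttccTGAggttataggcgg
SELENOW: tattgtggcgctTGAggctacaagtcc
SELENOH: cattgcactagcTGAcgcgtctatggg
These codons lie at chr3:49358132-49358134 in GPX1, chr19:1105403-1105405 in GPX4, chr12:104348413-104348415 in TXNRD1, chr22:19877111-19877113 in TXNRD2 and chr1:86880690-86880692 in SELENOF. The other UGA codons lie at chr3:53885831-53885833 in SELENOK, chr15:101272777-101272779 in SELENOS, chr3:150622392-150622394 in SELENOT, chr19:47780732-47780734 in SELENOW and chr11:57741816-57741818 in SELENOH. All are in coding exons and match the selenocysteine position that the annotation marks. G followed the UGA in 8 of the 10 mRNAs, with A in SELENOF and C in SELENOH.

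The position of the UGA differed between the genes. In TXNRD1, TXNRD2 and SELENOS it was the codon before the last amino acid codon, at codon 648 of 649, 523 of 524 and 188 of 189, so that 1 codon followed it. SELENOK had it at codon 92 of 94. The remaining 6 genes had an internal UGA with 69 to 154 codons after it, at codon 13 of 87 in SELENOW, 44 of 122 in SELENOH, 49 of 203 in GPX1, 49 of 195 in SELENOT, 73 of 197 in GPX4 and 96 of 165 in SELENOF. The UGA lay in the last exon in TXNRD1 and SELENOS and 8 to 473 bases before the last exon junction in the other 8 mRNAs.

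**Figure D1:**
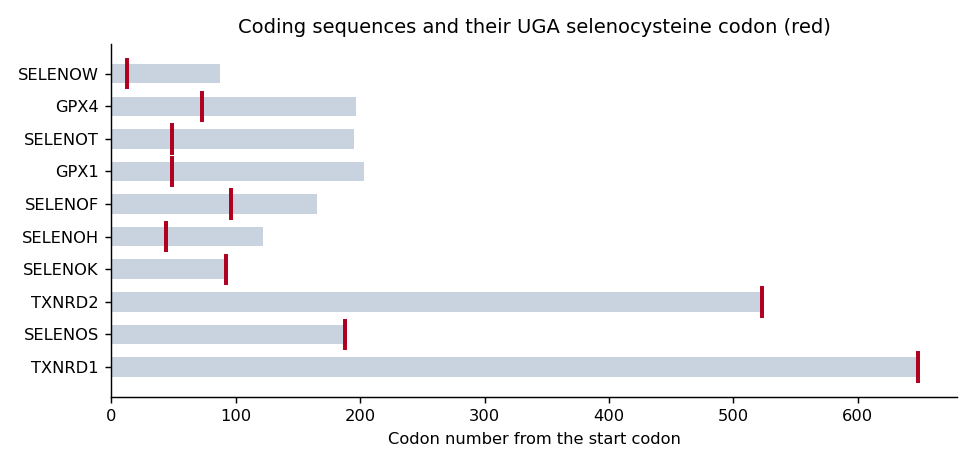
Coding sequences of the 10 mRNAs drawn to scale as bars, with the codon number on the x axis and the UGA selenocysteine codon in red. The red line stands at the end of the bar in TXNRD1, TXNRD2, SELENOS and SELENOK and inside the bar in the other 6 genes.

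Libraries held 9268041 to 12184749 reads on genes, except the polysome library of cercosporamide replicate 4 with 1592459. All 10 genes had reads in every library and so passed the filter, which kept the 12058 genes with no count of 0. The lowest count of any of them was 25, for TXNRD2. PANC-1 identity was checked with duct and epithelial markers, of which KRT8 (11925 to 158405 reads), KRT18 and KRT19 were high. KRT7 (5 to 298 reads), SOX9 (22 to 558) and EPCAM (12 to 126) were much lower, and CDH1 was at 0 in 13 libraries. The summed level of the 7 markers was 10686 to 16497 CPM (counts scaled to 1000000 reads of normalized library size) in DMSO polysome libraries and 15997 to 22531 CPM in those with cercosporamide. The 9 markers of acinar, endocrine, immune, endothelial and stromal cells summed to at most 2.16 CPM in any library, with INS, PRSS1, PTPRC and CD3E at 0 throughout. Strand was not used in counting, and reads with several alignments were counted at each. GPX1 and SELENOT share sequence with processed pseudogenes whose counts were 9.66% (GPX1P1) and 12.1% (SELENOTP1) of theirs, so the values of both genes are uncertain to that extent. SELENOH and SELENOT overlap an exon of a gene on the other strand by 41 bases (BTBD18) and 61 bases (SERP1).

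GPX4 was the most abundant of the 10 mRNAs. GPX4 reduces lipid hydroperoxides in membranes and protects cells from ferroptosis. Per kilobase of the MANE Select transcript, total mRNA with DMSO reached 808 ± 144 CPM for GPX4 and 383 ± 115 CPM for GPX1, the cytosolic peroxidase that removes hydrogen peroxide (SD, n = 4 here and below). SELENOW, a small thioredoxin-like protein, stood at 291 ± 89.4 CPM per kilobase and SELENOH, a nuclear protein, at 151 ± 21.4. The proteins of the endoplasmic reticulum followed, with 116 ± 36.1 CPM per kilobase for SELENOT, 105 ± 7.55 for SELENOF, 82.1 ± 11.4 for SELENOS and 73.0 ± 26.5 for SELENOK. The cytosolic reductase of thioredoxin, TXNRD1, had 39.9 ± 5.22 CPM per kilobase, and its mitochondrial counterpart TXNRD2 had the lowest level, 19.3 ± 4.04. The ranges of neighbours in this order overlapped for 4 of 9 pairs, namely GPX1 and SELENOW, SELENOH and SELENOT, SELENOT and SELENOF, and SELENOS and SELENOK.

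The order differed in the polysome fraction. Polysome-associated mRNA with DMSO again held most GPX4, at 187 ± 50.3 CPM per kilobase, and GPX1, at 131 ± 37.9, whose ranges overlapped there. SELENOS with 72.0 ± 11.6 and TXNRD1 with 68.6 ± 26.9 CPM per kilobase came next, and SELENOW, the third in total mRNA, stood at 53.7 ± 19.2. TXNRD2 was the lowest in both fractions, at 15.9 ± 4.45 CPM per kilobase in polysomes.

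With DMSO, 7 of the 10 mRNAs were lower in the heavy polysome fraction than in total mRNA and 1 was higher, relative to all genes of the libraries. The 7 were SELENOW, GPX4, SELENOT, GPX1, SELENOF, SELENOH and SELENOK, and TXNRD1 was higher. Over all genes tested, 29.6% were lower and 26.4% higher in the quasi-likelihood test of edgeR, with calls at more than 1.2-fold and an adjusted p (Benjamini-Hochberg) below 0.15. The median fitted log2 polysome/total value was -1.21 over the 10 genes and -0.0145 over all genes tested. In these bulk libraries, fewer cells holding an mRNA on polysomes and less of it on polysomes in each cell cannot be told apart.

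SELENOW had the lowest log2 ratio, with -2.50, -2.34, -2.75 and -2.23 in DMSO replicates 1 to 4. The fit gave 5.47-fold less SELENOW in polysomes (log2 -2.45 ± 0.19 SE, edgeR adjusted p = 6.35e-10). GPX4 measured -2.43, -1.91, -2.11 and -2.05 in the same replicates. Its fitted value was 4.36-fold lower (log2 -2.13 ± 0.18, edgeR adjusted p = 3.05e-09). Every DMSO plate thus showed both mRNAs well below 0 on this scale.

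GPX1 ratios with DMSO were -1.94, -1.42, -1.61 and -1.15, a fitted 2.89-fold lower level in polysomes. SELENOT was 3.40-fold lower, with plate values between -1.94 and -1.58. SELENOF and SELENOH were alike in size, 2.32-fold and 2.30-fold lower, and SELENOK was 1.56-fold lower (log2 -0.64 ± 0.17, edgeR adjusted p = 0.0043). For these 5 genes edgeR adjusted p-values ran from 1.95e-08 to 0.0043. TXNRD1 plates read 0.67, 0.20, 1.17 and 0.80, and the fit gave 1.64-fold more TXNRD1 in polysomes (log2 0.71 ± 0.18, edgeR adjusted p = 0.00216).

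TXNRD2 (log2 -0.30, 95% interval -0.74 to 0.15) and SELENOS (-0.19, -0.53 to 0.14) did not pass the test. SELENOS, which takes part in the removal of misfolded proteins from the endoplasmic reticulum, was below 0 in all 4 DMSO plates (-0.09, -0.14, -0.23 and -0.31). Its value was 0.08 when the libraries were normalized within each fraction, a scaling that raised the median of all genes to 0.26. From the lowest to the highest mean ratio, plate ranges of neighbouring genes overlapped for 8 of 9 pairs. The gap between SELENOS and TXNRD1 was the exception.

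**Figure D2:**
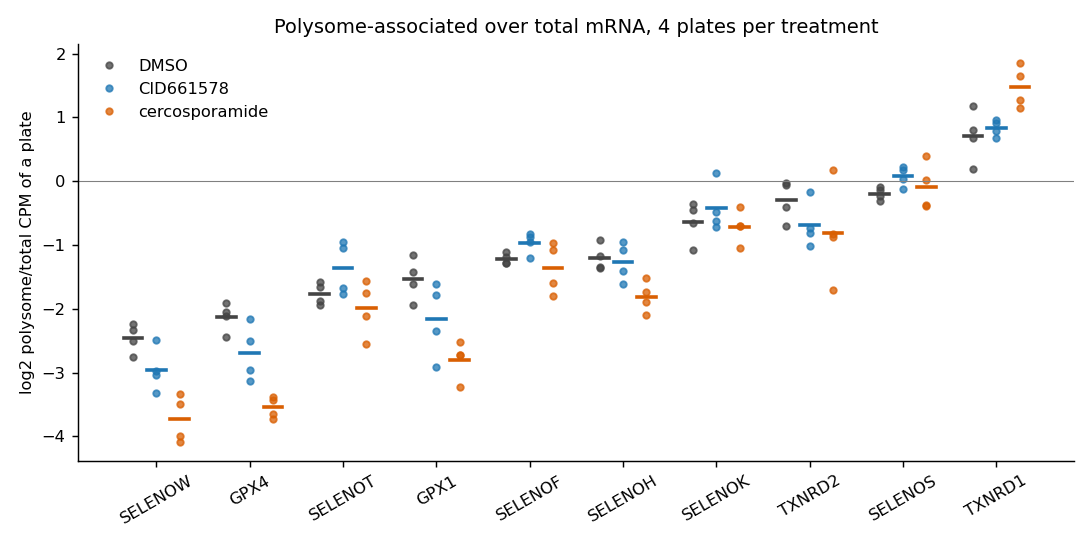
Log2 ratio of polysome-associated to total CPM (y axis) of each plate for the 10 genes (x axis), ordered by the DMSO value. Points are 4 plates per treatment and short lines their means. SELENOW and GPX4 lie lowest with every treatment, TXNRD1 lies above 0 in all 12 plates, and the cercosporamide points of SELENOW, GPX4, GPX1 and SELENOH lie below all their DMSO points.

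Genes with an internal UGA had lower ratios than those with the UGA near the stop, and the coding lengths of these groups differed too. The 6 internal-UGA genes spanned log2 ratios of -2.45 to -1.20 with DMSO and had 87 to 203 codons. The 4 genes with the UGA within 2 codons of the stop spanned -0.64 to 0.71 and had 94 to 649 codons. This split was made after the values were seen and was given no test. Over 10031 genes with a coding length in the annotation, Spearman's rho between codons and the fitted DMSO ratio was 0.605, a description across genes, which are not independent of each other. The 2081 genes of up to 250 codons had a median log2 ratio of -0.69, and 66.2% of them were called lower, against 5.48% of the 2426 genes over 750 codons. Fractions with more than 3 ribosomes were collected, and the part of coding length in the ratios of the selenoprotein genes was not tested.

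Within the class of up to 250 codons, the 8 selenoprotein genes were spread widely. SELENOW had a lower DMSO ratio than all but 0.913% of the class, GPX4 than all but 2.93%, SELENOT than all but 8.31% and GPX1 than all but 13.5%. SELENOF and SELENOH stood at 24.3% and 25.3%. SELENOK at 52.9% and SELENOS at 76.3% were the 2 short genes with the UGA near the stop. Among the longer genes, 22.1% had a lower ratio than TXNRD2 and 75.2% a lower ratio than TXNRD1.

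**Figure D3:**
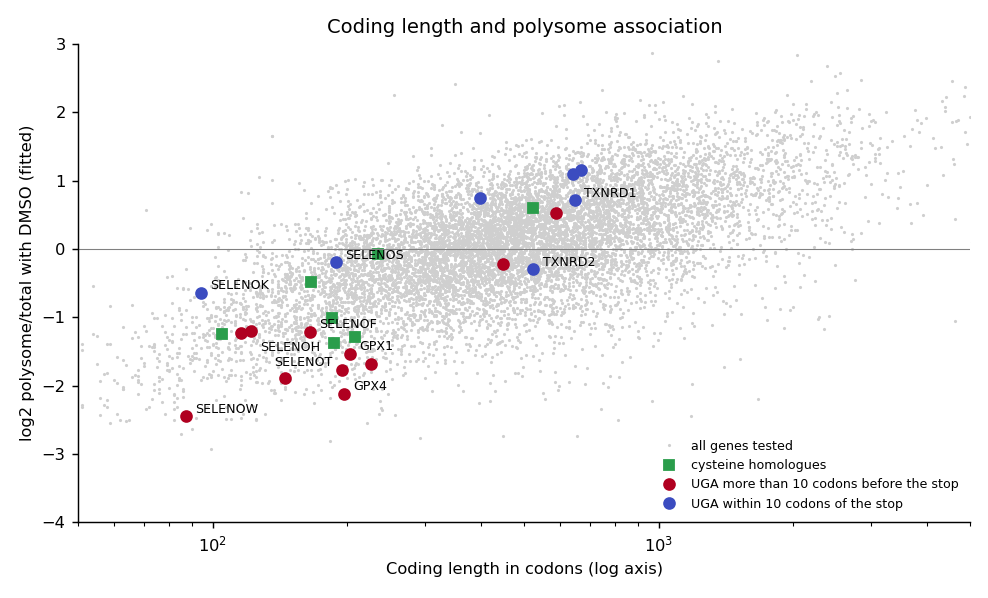
Fitted log2 polysome/total value with DMSO (y axis) against coding length in codons (x axis, log scale). Grey dots are all genes tested that have a coding length, of which 24 lie outside the axes. Red and blue circles are selenoprotein genes by the place of the UGA, and the 10 genes of the set are named. Green squares, labelled cysteine homologues, are related redox genes without a UGA to recode, thioredoxins included. SELENOW, GPX4, SELENOT and GPX1 lie in the lower part of the short genes, and TXNRD1 among the long genes with values above 0.

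CID661578 changed the translational efficiency of none of the 10 mRNAs past the threshold. Translational efficiency (TE) change is the difference from DMSO in the log2 polysome/total value. edgeR called 0 of 10, DESeq2 called 0, and 2 (GPX1 and GPX4) had an unadjusted p under 0.05. At the adjusted threshold of edgeR, 0.00829% of all genes tested were higher and 0.199% lower. The share of all genes at the unadjusted cut is not given here. The median TE change was 0.0297 for the 10 genes and 0.0315 for all genes.

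GPX1 changed by -0.63 on the log2 scale (95% interval -1.21 to -0.06, edgeR adjusted p = 0.517) and was lower than in DMSO in 3 of 4 replicates. Without replicate 1, its change was -0.95 and passed the threshold (edgeR adjusted p = 0.123). GPX4 changed by -0.56 (-1.08 to -0.05, edgeR adjusted p = 0.515) and SELENOW by -0.50 (-1.03 to 0.02), each lower in 3 of 4 replicates. TXNRD2 gave -0.39 (-1.01 to 0.24) and was lower in all 4 replicates. The intervals of these 4 genes reached past a 2-fold decrease, so a decrease of that size is within the error of this comparison. With the GC trend of each library removed, the GPX4 value was 0.07 and that of GPX1 -0.12.

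TE changes with CID661578 were 0.41 (-0.08 to 0.89) for SELENOT, 0.27 (-0.21 to 0.75) for SELENOS, 0.25 (-0.23 to 0.73) for SELENOF and 0.21 (-0.29 to 0.71) for SELENOK. None of the 4 passed the test. With the GC trend removed, SELENOT had 0.045, SELENOF -0.047 and SELENOK -0.049. These 3 mRNAs are of low GC content, and the 2893 genes tested with the lowest GC content (up to 41.7%) had a median TE change of 0.33 with CID661578. TXNRD1 (0.12, -0.39 to 0.63) and SELENOH (-0.06, -0.55 to 0.42) were close to 0.

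Cercosporamide lowered the TE of 4 of the 10 mRNAs and raised that of 1. GPX4, SELENOW, GPX1 and SELENOH were lower in TE and TXNRD1 was higher. Over all genes tested, 12.6% were lower and 15.8% higher. The median TE change was -0.35 over the 10 genes and -0.000503 over all genes, and DESeq2 also called 4 lower and 1 higher. The median of the 10 genes was 0.0171 in an analysis of partial variance, which regresses polysome-associated on total mRNA and called 2 lower (GPX4 and GPX1), and -0.69 with the GC trend of each library removed.

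GPX4 had log2 polysome/total ratios of -3.72, -3.42, -3.38 and -3.64 in cercosporamide replicates 1 to 4. All were below the lowest DMSO value of -2.43. The fitted TE change was 2.67-fold lower (log2 -1.42 ± 0.25 SE, edgeR adjusted p = 0.000699). GPX4 remained called in all 17 alternative analyses, with a change of -0.96 or more in size.

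SELENOW ratios with cercosporamide were -4.08, -3.99, -3.49 and -3.33, again below every DMSO plate. Its TE was 2.45-fold lower (log2 -1.29 ± 0.26, edgeR adjusted p = 0.00177). In the analysis of partial variance, the SELENOW change was -0.72 and did not pass (adjusted p = 0.263). GPX1 plates read -3.23, -2.72, -2.53 and -2.72, below all DMSO plates, and the TE was 2.42-fold lower (log2 -1.27 ± 0.28, edgeR adjusted p = 0.00359). Only the fit without plate and replicate terms left GPX1 uncalled among the alternatives (-1.20, edgeR adjusted p = 0.178). In the analysis of partial variance the GPX1 change was smaller, -0.63, and passed.

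SELENOH, with -2.10, -1.89, -1.73 and -1.52 against -1.17, -0.91, -1.34 and -1.37 with DMSO, was 1.54-fold lower in TE (log2 -0.62 ± 0.24, edgeR adjusted p = 0.0755). The SELENOH call was lost in 6 of 17 alternatives, among them without replicate 1 (-0.51), without replicate 2 (-0.50), without plate and replicate terms (-0.61) and in the analysis of partial variance (-0.37). TXNRD1 ratios were 1.85, 1.65, 1.27 and 1.15 with cercosporamide, higher than DMSO in each replicate although the ranges overlapped. The TE of TXNRD1 was 1.70-fold higher (log2 0.77 ± 0.25, edgeR adjusted p = 0.0362), and the call was lost without replicate 1 (0.63), without replicate 2 (0.54) and without plate and replicate terms (0.63).

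The remaining 5 genes did not pass with cercosporamide. Their TE changes were -0.47 (95% interval -1.11 to 0.17) for TXNRD2, -0.23 (-0.71 to 0.26) for SELENOT, -0.15 (-0.64 to 0.33) for SELENOF, -0.07 (-0.58 to 0.43) for SELENOK and 0.10 (-0.38 to 0.58) for SELENOS. TXNRD2 was lower than DMSO in 3 replicates and higher by 0.87 in replicate 3, and without that replicate its change was -0.98 and passed (edgeR adjusted p = 0.0345). Without the shallow cercosporamide plate of replicate 4, the 5 calls remained, with -1.44 for GPX4, -1.43 for SELENOW, -1.35 for GPX1, -0.76 for SELENOH and 0.92 for TXNRD1.

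**Figure D4:**
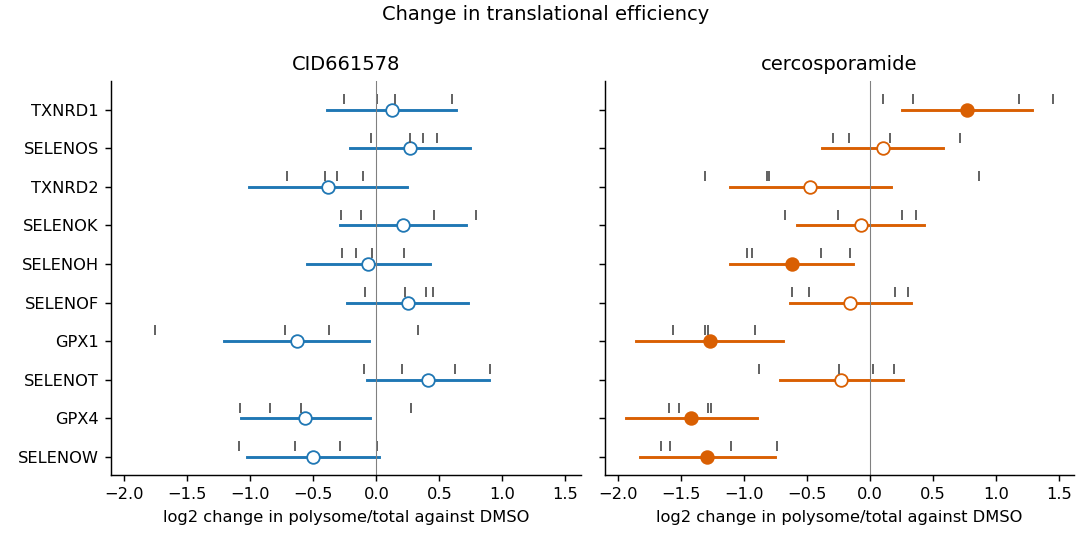
Fitted log2 change in polysome/total against DMSO (x axis) for CID661578 and cercosporamide, with 95% intervals as lines. Filled circles passed the threshold and open circles did not, and grey ticks are the changes in the 4 replicates. Filled circles appear only with cercosporamide, at GPX4, SELENOW, GPX1 and SELENOH to the left of 0 and at TXNRD1 to the right.

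GC content and coding length moved with the TE change with cercosporamide across all genes. Spearman's rho was -0.532 between exon GC content and the change and 0.332 between codons and the change, both descriptions across genes. The 2893 genes with the highest GC content (over 54.7%) had a median TE change of -0.36 and the 2893 with the lowest (up to 41.7%) one of 0.65. GC content was 67.3% in GPX4, 63.7% in GPX1, 53.6% in SELENOW, 50.3% in SELENOH and 46.3% in TXNRD1. With the GC trend removed from each library, GPX4 (-0.96), SELENOW (-1.03) and GPX1 (-0.90) remained lower and TXNRD1 (0.72) higher, and SELENOH (-0.43) no longer passed. SELENOT (37.3% GC, -0.98), SELENOF (39.7%, -0.77) and SELENOK (40.7%, -0.61) then passed as lower. Of the genes with up to 250 codons, 32.9% were called lower with cercosporamide. In that class, 3.03% had a lower TE change than GPX4, 5.00% than SELENOW and 5.33% than GPX1. SELENOH, though called lower, stood at 35.9% of the class, and SELENOT, SELENOF, SELENOK and SELENOS stood at 61.8% to 77.4%.

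The compounds were used at different doses and share their DMSO libraries, so their values stand side by side, and the difference between them was tested directly in the same model. Cercosporamide minus CID661578 was lower for 3 genes and higher for 1, where 7.93% of all genes tested were lower and 7.57% higher. GPX4 differed by -0.85 (95% interval -1.37 to -0.34, edgeR adjusted p = 0.0442), SELENOW by -0.79 (-1.32 to -0.25, 0.0711) and SELENOT by -0.64 (-1.12 to -0.15, 0.109). TXNRD1 differed by 0.65 (0.13 to 1.16, edgeR adjusted p = 0.121). SELENOT had opposite signs with the compounds, 0.41 with CID661578 and -0.23 with cercosporamide, neither of which passed alone. GPX1 (-0.64, -1.22 to -0.06) and SELENOH (-0.56, -1.05 to -0.07) missed the threshold with adjusted p-values of 0.178 and 0.164. The other 4 genes had intervals that included 0, SELENOF (-0.88 to 0.08), SELENOK (-0.79 to 0.22), SELENOS (-0.65 to 0.31) and TXNRD2 (-0.72 to 0.55).

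These differences were less firm than the TE changes. None of the 4 was called without replicate 1 or without replicate 2, where GPX4 differed by -0.62 and -0.83, SELENOW by -0.51 and -0.70, SELENOT by -0.70 and -0.61 and TXNRD1 by 0.47 and 0.58. SELENOT was also not called without replicate 3 (-0.58) or replicate 4 (-0.65).

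In total mRNA, none of the 10 genes passed the test with either compound in edgeR. With CID661578, 1 gene had an unadjusted p under 0.05 and DESeq2 called 0. At the adjusted threshold of edgeR, 0.307% of all genes were higher and 0.166% lower. With cercosporamide, 3 had an unadjusted p under 0.05 (SELENOW, TXNRD2 and GPX1) and DESeq2 called 1 higher, SELENOW (0.65). Only 0.0498% of all genes were higher and 0.0332% lower at the adjusted threshold of edgeR. Shares of all genes at the unadjusted cut are not given here for either compound. Fitted changes with cercosporamide were above 0 for 9 of 10 genes, with 0.64 (95% interval 0.13 to 1.15) for TXNRD2, 0.61 (0.20 to 1.02) for SELENOW, 0.49 (0.01 to 0.97) for GPX1 and 0.39 (-0.04 to 0.81) for GPX4. TXNRD1 was the exception (-0.19, -0.67 to 0.29). The median was 0.36 over the 10 genes and -0.0512 over all genes.

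In polysome-associated mRNA, cercosporamide lowered GPX4, GPX1 and SELENOW and raised TXNRD1. Of all genes tested, 16.0% were lower and 17.1% higher. GPX4 in polysomes held 128, 217, 167 and 125 CPM in DMSO replicates 1 to 4 and 63.0, 108, 92.0 and 62.9 CPM with cercosporamide, while total GPX4 held 695, 813, 722 and 519 CPM and 829, 1163, 954 and 786 CPM. GPX4 thus fell in polysomes in all 4 replicates (log2 -1.01 ± 0.16, edgeR adjusted p = 0.000183) and was above DMSO in total mRNA in each. Polysome-associated GPX1 went from 89.3, 157, 136 and 89.7 CPM to 46.9, 96.1, 102 and 51.6 CPM (log2 -0.75 ± 0.17, edgeR adjusted p = 0.00417).

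SELENOW in polysomes measured 45.5, 58.9, 25.8 and 32.7 CPM with DMSO and 21.0, 28.8, 24.6 and 28.5 CPM with cercosporamide. The groups overlapped, and the change of -0.68 (edgeR adjusted p = 0.0267) no longer passed without replicate 2 (-0.56). TXNRD1 in polysomes rose from 212, 166, 404 and 278 CPM to 371, 264, 583 and 370 CPM (log2 0.57 ± 0.17, edgeR adjusted p = 0.0237), higher in every replicate pair. SELENOH in polysomes changed by -0.31 (95% interval -0.70 to 0.07) and did not pass with all replicates, and passed without replicate 4 (-0.49). Without the replicate block, GPX1 (-0.69, edgeR adjusted p = 0.222) and TXNRD1 (0.55, 0.276) were not called in this comparison.

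With CID661578, SELENOF alone passed in polysome-associated mRNA, where 6.34% of all genes were higher and 3.93% lower. SELENOF binds the glycoprotein folding sensor of the endoplasmic reticulum. Its polysome level was 67.3, 66.99, 72.2 and 71.8 CPM with DMSO and 90.7, 86.3, 109 and 98.1 CPM with CID661578, without overlap. The change of 0.46 had an edgeR adjusted p of 0.1496, just under the threshold, and lost the call when any replicate was left out (0.42 to 0.48) and without the replicate block (0.47). With the GC trend removed, the change was 0.19 (edgeR adjusted p = 0.659).

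**Figure D5:**
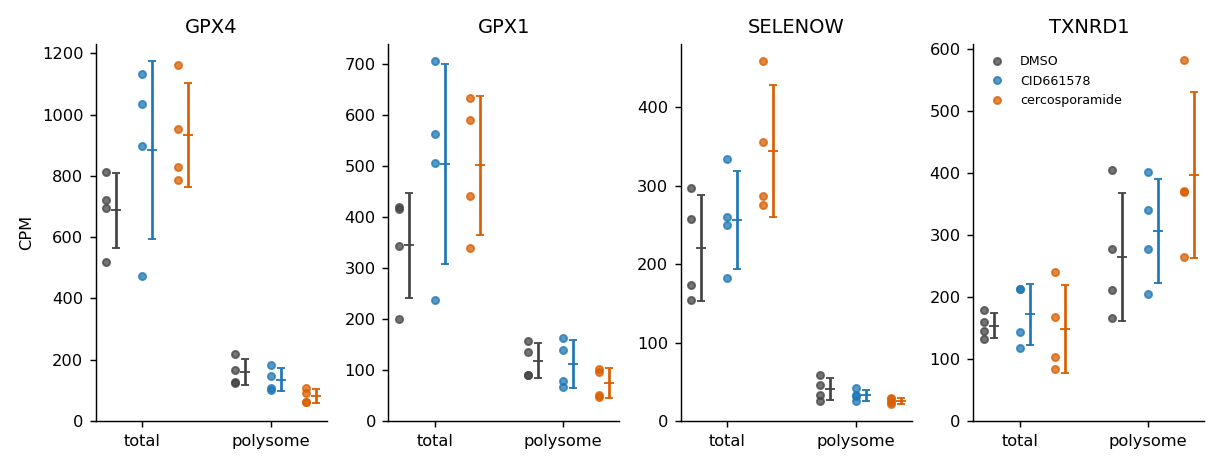
CPM (y axis, from 0) in total and polysome-associated mRNA of GPX4, GPX1, SELENOW and TXNRD1, with 4 libraries per treatment as points and mean ± SD beside them. Polysome points of GPX4, GPX1 and SELENOW lie below all their total points, with the lowest means under cercosporamide, and the polysome means of TXNRD1 lie above its total means.

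Of 15 other human selenoprotein genes, 8 passed the filter and 7 (GPX2, GPX6, DIO1, DIO2, DIO3, SELENOP and SELENOV) had a count of 0 in at least 1 library. With DMSO, 3 of the 8 were lower in polysomes and 3 higher, against 29.6% and 26.4% of all genes tested. SELENOM (-1.88), GPX3 (-1.68) and MSRB1 (-1.23) were lower, each with an internal UGA and 116 to 226 codons. SELENOO (1.16), TXNRD3 (1.09) and SELENOI (0.74) were higher, each with the UGA within 10 codons of the stop and 397 to 669 codons. SELENOI did not pass without replicate 4 (0.39). SEPHS2 (-0.23), with its UGA at codon 60 of 448, and SELENON (0.53), with the first of its 2 UGA selenocysteine codons at codon 127 of 590, had early UGA codons in long coding sequences and did not pass.

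Cercosporamide lowered the TE of GPX3 (-1.22), MSRB1 (-1.07) and SELENOM (-0.87) among these 8 and raised none, against 12.6% and 15.8% of all genes tested. GPX3 encodes the secreted plasma peroxidase and MSRB1 a methionine sulfoxide reductase. GPX3 lost the call in the analysis of partial variance (-0.36, adjusted p = 0.472). SELENOM lost it there (-0.035), without replicate 2 (-0.69) and without plate and replicate terms (-0.92). Values for the others were -1.23 for TXNRD3, 0.10 for SELENON, 0.14 for SEPHS2, 0.62 for SELENOI and 0.72 for SELENOO. With CID661578 none of the 8 passed in TE, with fitted changes of -0.43 (SELENOM) to 0.58 (SEPHS2). Between the compounds MSRB1 differed by -0.76 (edgeR adjusted p = 0.0856).

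Of 9 genes of the selenocysteine machinery, 8 passed the filter and SCLY, the selenocysteine lyase, did not. With DMSO, 5 were higher in polysomes and none lower, against 26.4% and 29.6% of all genes tested. The 5 were SEPSECS (1.204), SECISBP2L (1.10), EEFSEC (0.58), SEPHS1 (0.47) and SARS1 (0.36), with 392 to 1101 codons. Among all genes tested, 19.2% of those over 250 and up to 500 codons were called higher and 25.9% lower. Over 500 and up to 750 codons the shares were 37.7% and 12.0%, and over 750 codons 60.1% and 5.48%. The part of coding length in these 5 calls was not tested. SECISBP2, which binds the SECIS element, had -0.33 (95% interval -1.05 to 0.39) and as few as 2 reads in a library. EEFSEC lost the call without replicate 2 (0.38), SEPSECS without replicate 1 (0.76), SEPHS1 without replicate 1 (0.36), and SARS1 without replicate 1 (0.29) or replicate 3 (0.30). With cercosporamide, SEPSECS, the enzyme of the last step in making the selenocysteine tRNA, was higher in TE (1.57, edgeR adjusted p = 0.0800). TRNAU1AP was lower (-0.59, 0.129), and 6 were uncalled, where 15.8% of all genes tested were higher and 12.6% lower. None of the 8 passed in either fraction alone with cercosporamide. Their fitted changes ran from -0.47 to 0.53 in polysome-associated mRNA and from -1.05 to 0.35 in total mRNA. SEPSECS lost its call in 6 of 17 alternatives, among them without replicate 2 (1.43) or replicate 3 (1.38), with the GC trend removed (0.83) and in the analysis of partial variance (0.081). TRNAU1AP lost its call in 11 of 17, among them without replicate 1 (-0.46), 3 (-0.63) or 4 (-0.49). None of the 8 passed with CID661578.

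Related redox genes without a UGA to recode, among them the thioredoxins TXN and TXN2, were measured in the same libraries. Of 9 such genes, 7 passed the filter, and 5 were lower in polysomes with DMSO and none higher. The share called lower was 29.6% over all genes tested and 66.2% over those with up to 250 codons. The 5 genes were GPX7 (-1.38), GPX8 (-1.29), TXN (-1.25), MSRB3 (-1.01) and TXN2 (-0.49), with 105 to 209 codons. TXN2 lost the call without replicate 3 (-0.30) or 4 (-0.37). With cercosporamide, GPX7 (-1.09), MSRB3 (-0.94) and TXN (-0.56), the thioredoxin that TXNRD1 reduces, were lower in TE and GPX8 (0.63) was higher. Of the genes with up to 250 codons, 32.9% were lower and 5.29% higher. In polysome-associated mRNA with cercosporamide, 2 of the 7 passed as lower and 0 as higher, against 16.0% and 17.1% of all genes tested. GPX7 lost the call in 7 of 17 alternatives, among them without replicate 2 (-0.64) or 4 (-0.83), and TXN in 9 of 17, among them without replicate 1 (-0.26) or 2 (-0.59). GPX8 lost it in 6 of 17, among them without replicate 2 (0.37) or 4 (0.65), and had -0.013 with the GC trend removed. MSRB3 lost it in the analysis of partial variance (-0.46, adjusted p = 0.439). None of the 7 passed in TE with CID661578.

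The selenoprotein genes did not share 1 profile over the 12 plates. Pearson's r between each gene's log2 polysome/total ratio and the median of the other 9 ran from 0.74 for SELENOT, 0.59 for SELENOK and 0.56 for GPX4 to 0.18 for TXNRD2 and -0.76 for TXNRD1. Among 7872 other genes whose average log2 CPM reached 3, the profiles most like the median of the 10 genes were those of GIHCG (r = 0.962), CHCHD7 (0.947) and MPC2 (0.945), where the median r was -0.0469. These r values are descriptions over 12 plates of 3 treatments, which share the treatment differences.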

How the data were processed

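The authors removed rRNA reads, used HISAT2 on hg38 for alignment, and deposited unnormalized counts per RefSeq gene from featureCounts at default settings.

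Libraries were grouped by treatment and fraction from the labels. Genes with a 0 in any library were removed, as in the study's methods, which left 12058 of 54583 genes. Counts were scaled with TMM and fitted with edgeR 4.0.16 in R 4.3.3 (quasi-likelihood test), with a term per plate, a term per replicate in the polysome fraction (the replicate block, named as batch in the methods) and polysome-by-compound terms. Each fraction was also fitted alone. Calls needed a Benjamini-Hochberg adjusted p below 0.15 over all genes tested and over 1.2-fold. CPM are counts scaled by the TMM-adjusted library size. Scripts were tested on simulated data. Symbols matched GENCODE v44 directly for 39020 genes. Within groups, chi-square per degree of freedom was at least 13.3 over 36 pairs, so no library was a copy of another in its group. Libraries of different groups were not compared in this way.

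Pairing was checked by correlating deviations from group means between treated and DMSO libraries of equal number, with r above 0.1 in 13 of 16 pairs (-0.0159 to 0.562). Pairs below 0.1 were cercosporamide polysome replicates 1 (-0.0159) and 4 (0.0557) and CID661578 total replicate 1 (0.0831). Plates were called biological replicates by the authors, and p-values measure the spread between them. All genes and lists were chosen with earlier results of these data known. Named were the 10 genes, list genes past a TE threshold, other selenoproteins tested, and the 3 genes most alike in profile. The anota2seq package of the study was not used. Alternatives included DESeq2 1.42.0 and an analysis of partial variance with limma 3.58.1.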

Additional observations from a re-analysis of the deposited data

How the results depend on the processing

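With DMSO, 1 of the 10 genes was higher under every alternative run and 7 were lower, except with the GC trend removed, where 8 were lower (TXNRD2 added, -0.45). Single genes gave 1659 alternative values over all comparisons, of which 1492 kept direction and call, 106 lost a call, 23 gained one and 38 changed sign. For cercosporamide, the count of lower genes in TE (4) was 2 with neither replicate block nor plate terms, 2 in the analysis of partial variance, 6 with the GC trend removed and 3 to 5 with a replicate left out. The count of higher genes (1) was 0 without both kinds of term and 0 to 1 with a replicate left out. For CID661578 the lower count was 0 to 1 with a replicate left out. Shares of all genes called under each alternative are not given beside these counts or those below. The counts therefore describe the 10 genes only.

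For the difference between compounds, the lower count (3) was 0 with neither replicate block nor plate terms, 5 with DESeq2, 5 with its size factors in edgeR, 5 with filterByExpr, 6 with the GC trend removed, 1 at an adjusted p of 0.05 and 0 to 4 with a replicate left out. The higher count (1) was 0 without both terms, with those size factors, with filterByExpr, with no filter and at 0.05, and 0 to 1 with a replicate left out. Higher genes in total mRNA with cercosporamide (0) numbered 1 with DESeq2 and 3 with the GC trend removed. The higher count in polysome-associated mRNA with CID661578 (1) was 0 without the replicate block, with the size factors, with no filter, with the GC trend removed, at 0.05 and with any replicate left out, and 1 without only the cercosporamide plate of replicate 4. With cercosporamide that count (1) was 0 without the replicate block. Removal of the replicate block alone also ended the calls of SELENOT between compounds (-0.64), of TRNAU1AP (-0.59) and TXN (-0.56) in TE and of GPX1 (-0.69) in polysomes with cercosporamide, and no other call of the genes named.

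Changes of sign concerned values that had not passed, except GPX8 with cercosporamide (-0.013 with the GC trend removed). With the GC trend removed, polysome changes with CID661578 became 0.17 (GPX1), 0.083 (GPX4), -0.032 (SELENOT) and 0.021 (SELENOH), and with cercosporamide -0.39 (SELENOT), -0.14 (SELENOK) and -0.17 (SELENOF). TE changes with CID661578 became 0.073 (GPX4), -0.049 (SELENOK) and -0.047 (SELENOF), and total GPX4 with CID661578 -0.049. In the analysis of partial variance, TXNRD2 had 0.046 with CID661578 and 0.13 with cercosporamide, SELENOK 0.072 and SELENOF 0.11 with cercosporamide. TXNRD2 differed by 0.062 between compounds with neither block nor plate terms, SELENOH in total mRNA with CID661578 was -0.0044 with no filter, and the DMSO ratio of SELENOS was 0.081 with TMM within each fraction.

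With a replicate left out, ranges that crossed 0 were -0.035 to 0.21 (TXNRD1) for TE with CID661578, and -0.10 to 0.23 (SELENOS) and -0.22 to 0.13 (SELENOK) with cercosporamide. TXNRD2 ran from -0.53 to 0.13 between compounds. Total mRNA with CID661578 gave -0.10 to 0.30 (TXNRD1), -0.30 to 0.20 (SELENOT), -0.013 to 0.12 (SELENOS), -0.10 to 0.27 (SELENOK) and -0.058 to 0.18 (SELENOH), and TXNRD1 with cercosporamide -0.37 to 0.044. Polysome-associated mRNA gave -0.10 to 0.28 (TXNRD2) and -0.18 to 0.014 (SELENOH) with CID661578 and -0.090 to 0.40 (TXNRD2), -0.063 to 0.33 (SELENOT) and -0.010 to 0.36 (SELENOK) with cercosporamide. Leaving out only the shallow cercosporamide plate was chosen after seeing the data. The causes of these shifts were not tested. Depth limits genes with few reads, with lowest counts of 1 (MSRA, GSR), 2 (TXNRD3, SECISBP2), 3 (SEPSECS), 4 (GPX7), 5 (GPX3) and 25 (TXNRD2).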

Other observations

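Selenoprotein genes of other tissues gave few reads in PANC-1. GPX6, the olfactory peroxidase, and DIO1, a thyroid hormone deiodinase, had 0 reads in all 24 libraries. DIO2 and DIO3 had reads in a few libraries, with at most 7 and 13, and SELENOP, the plasma carrier of selenium, reached at most 4. GPX2, the gastrointestinal peroxidase, was at 0 in 19 libraries and reached 2 reads. The selenocysteine lyase gene SCLY reached 3. Lists of counts this low carry no comparison between groups.

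In none of the 90 groups of 4 values (ratios per treatment and CPM per group of the 10 genes) did a single replicate stand apart by Dixon's test at the 95% level, where chance alone would give about 4.5.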
